A study of Mus musculus with 6 samples.

Results

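The interleukin gene family made up 65 of the 17142 genes in the deposited expression table. Its members were the genes whose symbol starts with Il followed by a digit, leaving out Il4ra, Il13ra1, Il1b and Il18. Of the 65, 37 encode receptor chains and 28 encode ligands, antagonists, a binding protein or enzymes. RNA-seq of bulk RNA had been run on primary alveolar macrophages, phagocytes that reside in the airspaces of the lung. The cells came from mice after a single allergen challenge, and 3 libraries were wild type (WT) and 3 were Trim33 knockout (KO). Both groups had met the allergen, so the comparison holds exposure constant and asks how the knockout differs. The strain, age and sex of the mice, the allergen, the knockout allele and any Cre driver are not given in the labels. Nor is it stated whether each library is a separate animal, and p-values therefore cover the variation among the libraries alone, and that variation may be technical.

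Interleukins are secreted proteins with which immune cells and their neighbours instruct each other. A cell can answer one only if it carries the matching receptor chains, and many chains are shared, so that the level of a single chain can bear on several cytokines. The receptors of the IL-1 family signal through MyD88 and IRAK kinases, whereas most others signal through JAK kinases and STAT transcription factors. Decoy receptors, antagonists and binding proteins hold the same cytokines in check. Alveolar macrophages are a source of IL-1 family cytokines in the lung and carry receptors for several interleukins.

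Levels are given in TPM, transcript levels that are scaled by gene length and add up to 1000000 in each library, and the sequencing depth behind a value is unknown. Members were tested when they reached 1 TPM in at least 3 of the 6 libraries, which 33 of the 65 did. Il2rb, with a third-highest value of 1.0 TPM, lay just inside this limit and Il10, with 0.91 TPM, just outside it. The test was limma on log2(TPM + 1) across all 11111 genes that met this limit, with calls made where the Benjamini-Hochberg adjusted p was under 0.05. Differences are knockout minus wild type on that log2 scale, which understates changes of low genes. Over all genes the median difference was -0.15, and after median-ratio scaling of the libraries it was -0.0025, so each difference is to be read against that shift. Trim33 itself stood at 40.3% of the wild-type mean in the knockout (difference -1.08 ± 0.19 SE, limma adjusted p 0.0114), below every wild-type library. The two-sided exact permutation test of Trim33 gave p = 0.1, the smallest that 3 against 3 can give. The 8 markers of alveolar macrophages summed to between 22870 and 23820 TPM in WT and between 15980 and 19240 TPM in KO, with Siglecf, Chil3 and Mrc1 lower and the other 5 not passed. Most of this sum is Chil3, with means of 18100 TPM in WT and 12590 TPM in KO, so the sum follows that gene. Of the other 5, Marco, Pparg and Fabp4 had lower means in KO. Car4 (1481 and 2193 TPM) and Itgax (1117 and 1171 TPM) had higher ones.

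Of the 33 tested members, 6 were higher in the knockout, 1 was lower and 26 did not pass. The higher genes were Il2rg, Il7r, Il21r, Il18bp, Il1r2 and Il20rb, and the lower gene was Il16. Over all tested genes 4.47% were called higher and 10.2% lower, against 18.2% and 3.03% of the tested members. The median difference of the tested members was 0.21, and 23 of 33 were positive, against 28.1% of all tested genes. After median-ratio scaling 24 of 33 were positive, against 49.6% of all genes. With that scaling 3 of the 33 members and 665 of the 11111 genes were higher, and 1 member and 383 genes were lower, so the members' share of higher calls stood less far from that of all genes. The 3 knockout values lay wholly above the 3 wild-type values for 9 members and wholly below for 6, where the same held for 9.84% and 34.6% of all tested genes. Among these members Il21r met the filter through its knockout values and Il5ra through its wild-type values. At an unadjusted p under 0.05, 8 members were higher and 6 lower, against 977 and 3163 of the 11111 genes. Counts at an unadjusted p given further on are to be read against these. The counts of called members rested on single libraries, as did those of all genes. Limma called 0 members without wild-type replicate 2, without wild-type replicate 3 and without knockout replicate 2. In each of these fits 12 members had an unadjusted p under 0.05. Over all genes these fits called 193, 124 and 168 higher and 185, 84 and 141 lower. Without wild-type replicate 1 limma called 13 members, 8 higher and 5 lower, where 800 of all genes were higher and 2577 lower. Without knockout replicate 1 it called 2, against 191 higher and 129 lower genes. Without knockout replicate 3 it called 3, against 441 higher and 559 lower genes. Wild-type replicate 1 was the wild-type library nearest to the knockout for each of the 7 called members.

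**Figure D1:**
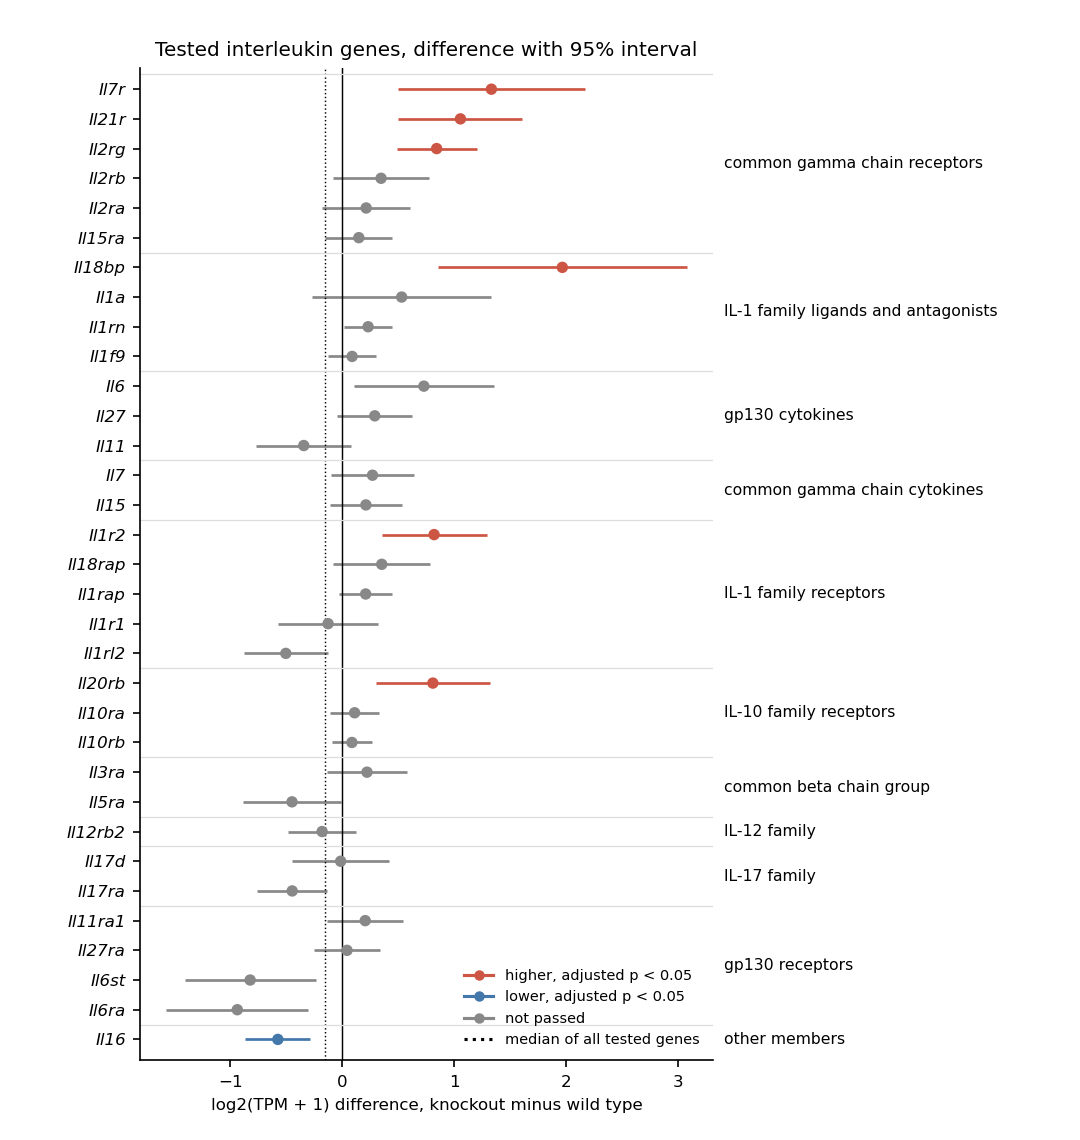
Difference between knockout and wild type on the log2(TPM + 1) scale for each of the 33 tested interleukin genes, with its 95% confidence interval from limma, grouped by role. Points are the differences, the dotted line is the median of all tested genes at -0.15, and the 6 higher genes spread over receptor and antagonist groups while Il16 is the called lower gene.

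The family spanned a wide range of levels. The highest was Il1rn, the IL-1 receptor antagonist, with a mean of 298.6 TPM over the 6 libraries, followed by Il2rg at 230.3, Il1a at 164.4, Il17ra at 125.1 and Il10rb at 105.7 TPM. These levels are length-scaled and may be set against each other. The order differed by group, with Il17ra (145.3 TPM) above Il1a (135.0 TPM) in WT and Il10rb (109.0 TPM) above Il17ra (104.9 TPM) in KO. Neighbours in this order were often not separable: Il1a ranged from 99.00 to 227.82 TPM and overlapped Il2rg, from 139.69 to 341.00 TPM, and Il17ra, from 99.73 to 173.03 TPM. At the other end Il5ra and Il2rb had means of 0.972 and 0.953 TPM. The family as a whole took 1180 to 1338 TPM in wild-type libraries and 1449 to 1536 TPM in KO libraries.

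**Figure D2:**
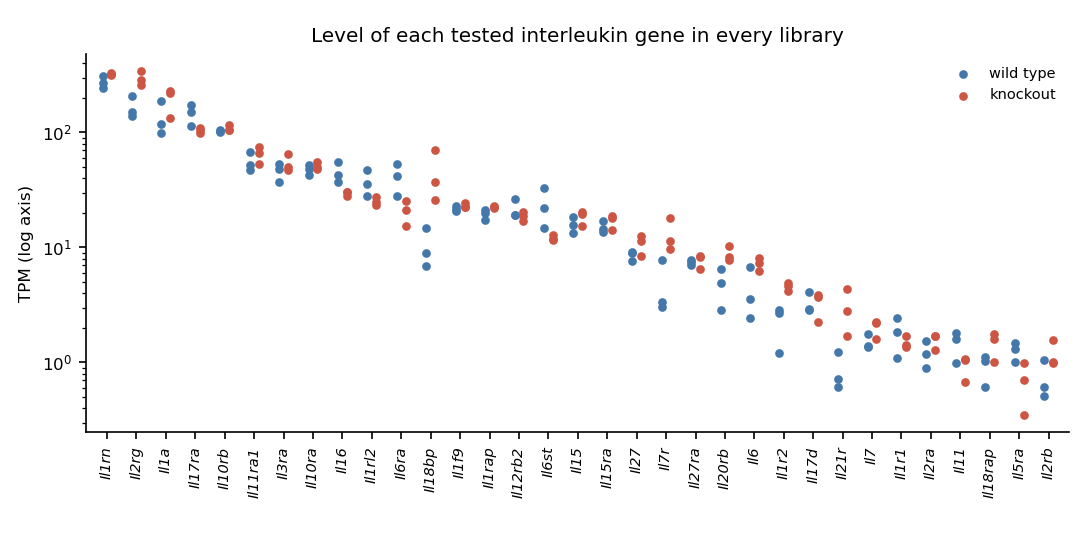
Level in TPM, on a log axis, of each tested interleukin gene in every library, ordered by the mean over 6 libraries from Il1rn (298.6 TPM) to Il2rb (0.953 TPM). Each point is 1 library, blue for wild type and red for knockout.

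Of the receptor chains that use the common gamma chain, Il2rg, Il7r and Il21r were higher in the knockout. The common chain, encoded by Il2rg, joins a cytokine-specific chain to form the receptors for IL-2, IL-4, IL-7, IL-9, IL-15 and IL-21 and passes the signal to JAK3. Of 7 members of the group 6 were tested, and their differences were positive, with a median of 0.60, where 28.1% of all tested genes were positive, or 49.6% after median-ratio scaling. Of the 6, 3 were higher, where 4.47% of all tested genes were, and 3 (Il2ra, Il2rb and Il15ra) did not pass and overlapped between groups. These counts are a description, since Il21r met the filter through its knockout values and Il2rb with 2 of its 3 values from the knockout. No member of the group was lower, by limma's adjusted p or at an unadjusted p under 0.05.

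Il2rg (Entrez gene 16186, chromosome X, 101264385 to 101268255 on GRCm38.p6) had 207.01, 149.49 and 139.69 TPM in wild-type replicates 1, 2 and 3 and 341.00, 285.34 and 259.25 TPM in knockout replicates 1, 2 and 3. Every knockout library was above every wild-type library, and the means were 165 ± 36.4 and 295 ± 41.8 TPM (SD, n = 3 each), a 1.78-fold rise. On the log2 scale this was 0.84 ± 0.16 (SE; limma adjusted p 0.0164). Il2rg was called under each of the alternatives other than leaving out wild-type replicate 2, wild-type replicate 3 or knockout replicate 2. Its adjusted p ran from 5.04e-06 to 0.0738 over the alternatives. In bulk RNA a change in the number of cells that carry a transcript and a change per cell cannot be told apart, here or for the genes that follow.

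Il7r (Entrez gene 16197, chromosome 15, 9506159 to 9529941), the chain that binds IL-7 and, with Crlf2, the alarmin TSLP, had 7.80, 3.36 and 3.03 TPM in WT and 17.92, 11.33 and 9.60 TPM in KO. The groups did not overlap, with wild-type replicate 1 the nearest to the knockout, and the mean rose 2.74-fold from 4.73 ± 2.66 to 13.0 ± 4.39 TPM (SD, n = 3 each). The difference was 1.33 ± 0.35 (limma adjusted p 0.0491). This call lay at the threshold, and it was lost with a pseudocount of 0.1, with no filter, on FPKM values, after median-ratio or quantile scaling, and without any library other than wild-type replicate 1.

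Il21r (Entrez gene 60504, chromosome 7, 125603252 to 125634397), the IL-21 receptor, was low. It had 1.22, 0.72 and 0.61 TPM in WT and 4.38, 2.81 and 1.70 TPM in KO, and it passed the filter through its knockout values. The mean rose 3.49-fold from 0.850 ± 0.325 to 2.96 ± 1.35 TPM (SD, n = 3 each), a difference of 1.06 ± 0.25 (limma adjusted p 0.0260). It was no longer called with no filter, and it was called with 1 library left out only when that was wild-type replicate 1 or knockout replicate 3. Il2rb and Il2ra, the chains that complete the IL-2 receptor, had 0.51 to 1.04 and 0.89 to 1.54 TPM in WT and 0.99 to 1.57 and 1.28 to 1.69 TPM in KO, and the groups overlapped. Il15ra, which presents IL-15, had 13.71 to 17.08 TPM in WT and 14.09 to 18.71 TPM in KO. Il9r, the IL-9 receptor, was under the filter, between 0.09 and 0.23 TPM in all libraries.

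The cytokines of this group were lower than their shared chain. Il15 had 15.8 ± 2.53 TPM in WT and 18.4 ± 2.70 TPM in KO (difference 0.21 ± 0.14, limma adjusted p 0.296). Il7 had 1.5 ± 0.229 and 2.02 ± 0.355 TPM (difference 0.27 ± 0.17, limma adjusted p 0.252). Neither passed, and in both the groups overlapped. Il21 and Il4, cytokines of T cells, reached 0.03 and 0.17 TPM at most.

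The promoters of the 3 raised receptor genes are shown because these genes moved together, as read from RefSeq on GRCm38.p6. Each run lies before the annotated gene, 5′ to 3′ on the gene's strand, and capitals mark a GAS match. The positions are chrX:101268256-101268505 on the minus strand for Il2rg, chr15:9529942-9530126 on the minus strand for Il7r and chr7:125603179-125603251 on the plus strand for Il21r.
Il2rg: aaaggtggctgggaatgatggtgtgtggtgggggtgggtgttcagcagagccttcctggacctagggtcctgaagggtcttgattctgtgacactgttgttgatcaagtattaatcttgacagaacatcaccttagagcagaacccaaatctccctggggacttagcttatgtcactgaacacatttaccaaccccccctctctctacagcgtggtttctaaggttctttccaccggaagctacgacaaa
Il7r: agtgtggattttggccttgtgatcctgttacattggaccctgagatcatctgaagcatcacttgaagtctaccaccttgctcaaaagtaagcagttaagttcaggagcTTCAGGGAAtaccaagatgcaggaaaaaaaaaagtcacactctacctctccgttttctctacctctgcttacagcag
Il21r: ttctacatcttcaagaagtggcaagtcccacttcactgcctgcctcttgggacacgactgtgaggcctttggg

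Motifs were sought on both strands in the 250 bases before each RefSeq start, with 9 such windows for the 7 called members. The GAS letters bound by STAT dimers, TTCNNNGAA, were found in the windows of Il7r, 142 bases before the start, and of Il1r2, 111 bases before it. Over all 32851 windows 7.02% held them. The core of the interferon-stimulated response element, GAAANNGAA, was in 0 of the 9 windows and in 7.13% of all windows. The SMAD-binding letters CAGACA were in 3 of the 9 windows, 1 of Il21r outside the run printed above and 2 of Il16, and in 17.1% of all windows. No match overlapped another in these windows. A match describes letters and is not a binding site, and a window without one says nothing of the factor.

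Some markers of other cells also differed between the groups. The 5 monocyte markers summed to 12.4 to 15.7 TPM in WT and to 37.9 to 123 TPM in KO, and Ly6c2, Plac8 and Vcan were called higher. Ccr2, the receptor that brings monocytes into tissue, had 4.04 to 5.88 TPM in WT and 3.0 to 6.27 TPM in KO. Cx3cr1 had 0.67 to 1.44 TPM in WT and 1.37 to 3.07 TPM in KO. Neither passed, and in both the groups overlapped. Knockout replicate 1 was the lowest of the knockout libraries for Il1r2 and knockout replicate 2 for Il20rb. Knockout replicate 3 was the lowest for the monocyte sum and for the other 4 of the 6 higher members, Il2rg, Il7r, Il21r and Il18bp. It was likewise the lowest knockout library for the signalling genes Stat2, Socs1 and Socs3 described below, at 70.15, 9.61 and 62.87 TPM. The monocyte sum was 122.3, 123.0 and 37.87 TPM in knockout replicates 1, 2 and 3, whereas the 4 members declined at each step from replicate 1 to replicate 3. The share of all higher genes with knockout replicate 3 lowest was not computed. The part of monocyte-lineage cells in the rises of the members was not tested. Of 8 T cell markers 5 were in the table, and they summed to 1.64 to 3.69 TPM in WT and 2.31 to 3.46 TPM in KO, with 4 of the 5 under 1 TPM in every library. The 4 B cell markers summed to 1.25 to 2.77 and 1.45 to 2.03 TPM, and the 5 markers of NK and innate lymphoid cells to 7.45 to 10.9 and 7.6 to 8.95 TPM, with Gzma higher and Rora lower. The 6 dendritic cell markers summed to 5.60 to 6.15 TPM in WT and 7.44 to 10.4 TPM in KO. The sum follows Ccr7, which was called higher, with means of 1.647 TPM in WT and 4.93 TPM in KO. Flt3, Zbtb46, Xcr1 and Cd209a had lower means in KO, Xcr1 without overlap. Siglech, under the filter, had a higher one (0.1267 and 0.1867 TPM). The 6 neutrophil markers summed to 136.1 to 153.7 TPM in WT and 156.2 to 165.1 TPM in KO, without overlap. Most of this sum is S100a8, with means of 108.2 TPM in WT and 127.8 TPM in KO and every knockout library above WT. S100a9 also had a higher mean in KO, with overlap. Cxcr2 lay below WT in every knockout library (means 12.7 and 9.063 TPM), and Csf3r had a lower mean in KO (18.08 and 13.35 TPM). These 4, the tested markers of the list, did not pass, with limma adjusted p from 0.0711 to 0.511. Ly6g, the marker that defines neutrophils in the mouse, was listed above 0 in knockout replicate 1 alone, at 0.2 TPM. The part of these cells in the rises was not tested either. No marker of these 6 lists that was in the table stood at 0 in every library. A further list, 7 markers of lung epithelium and endothelium, summed to 210.5 to 290.6 TPM in WT and 169.4 to 287.1 TPM in KO. Limma called 0 of them. Some varied widely among libraries, as did Cdh5, from 2.02 to 11.3 TPM in WT. The part of such cells in the levels of the members was not tested. Of 4 eosinophil markers 2 were in the table, and they summed to 52.09 to 83.66 TPM in WT and 35.41 to 50.48 TPM in KO, without overlap. Nearly all of this sum is Siglece, which did not pass (limma adjusted p 0.0668), and Epx and Ccr3 were absent. Of 5 mast cell and basophil markers 3 were in the table, with sums of 0.7 to 2.6 TPM in WT and 1.07 to 1.59 TPM in KO. Their part was likewise not tested.

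**Figure D3:**
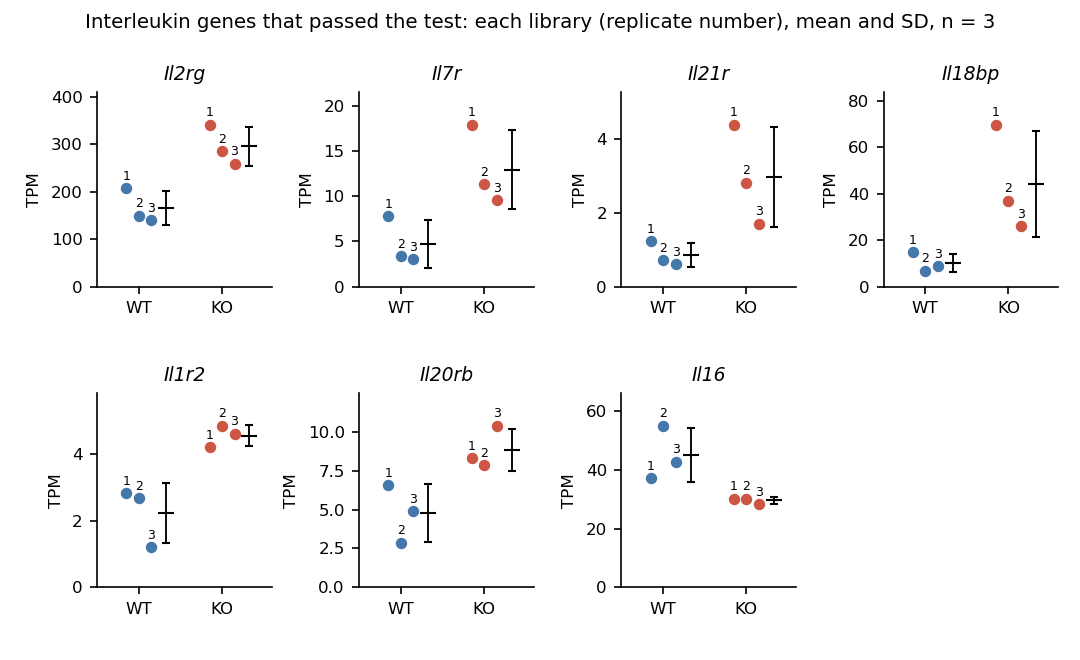
TPM of the 7 called interleukin genes in each library, with replicate numbers beside the points and the mean and SD of 3 libraries as black bars. For each of the 6 higher genes all knockout points lie above all wild-type points, and for Il16 the knockout points, from 28.21 to 30.19 TPM, lie below the wild-type points, from 37.23 to 54.97 TPM.

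In the IL-1 family Il18bp and Il1r2 rose. Il18bp, the soluble protein that binds and neutralizes IL-18, had the largest difference of all tested members. Il1r2 encodes the decoy receptor that binds IL-1 without signalling. Of the family's 4 tested ligand and antagonist genes 1 was higher and 3 did not pass. Of its 5 tested receptor genes 1 was higher and 4 did not pass. Over all tested genes 4.47% were called higher and 10.2% lower, and counts this small do not set the family apart.

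Il18bp (Entrez gene 16068, chromosome 7, 102015074 to 102018232) had 14.66, 6.86 and 8.88 TPM in WT and 69.68, 37.04 and 26.00 TPM in KO. All knockout libraries were above all wild-type libraries, with a spread in the knockout of more than its lowest value. The mean rose 4.37-fold, from 10.1 ± 4.05 to 44.2 ± 22.7 TPM (SD, n = 3 each). The difference was 1.97 ± 0.44 (limma adjusted p 0.0449), with a 95% interval from 0.86 to 3.08. The call was lost on FPKM values, after median-ratio or quantile scaling and without wild-type replicate 2, wild-type replicate 3 or knockout replicate 2, while the difference stayed between 1.59 and 2.28 over all alternatives.

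Il1r2 (Entrez gene 16178, chromosome 1, 40084692 to 40125230) had 2.84, 2.68 and 1.2 TPM in WT and 4.21, 4.86 and 4.62 TPM in KO. The knockout libraries lay close together and above the wild type, and the mean rose 2.04-fold, from 2.24 ± 0.904 to 4.56 ± 0.329 TPM (SD, n = 3 each). The difference was 0.82 ± 0.21 (limma adjusted p 0.0330). It was lost with no filter and without any library other than wild-type replicate 1. Il1r1, the signalling receptor for IL-1, had 1.09, 2.42 and 1.82 TPM in WT and 1.37, 1.42 and 1.71 TPM in KO and did not pass (difference -0.13 ± 0.20, limma adjusted p 0.665). The ratio of decoy to signalling receptor was therefore 2.61, 1.11 and 0.659 in wild type and 3.07, 3.42 and 2.70 in knockout. This ratio was chosen after its values were seen and was given no test, and its ranges did not overlap, although wild-type replicate 1 lay near knockout replicate 3.

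Il1r2 opens a run of IL-1 family receptor genes on chromosome 1, followed by Il1r1, Il1rl2, Il1rl1, Il18r1 and Il18rap, which ends at 40551707. Of the 3 other tested genes in this run limma called 0, with 1 lower at an unadjusted p under 0.05. Il1rl2, the receptor for IL-36, had 27.78, 46.98 and 35.29 TPM in WT and 23.34, 24.70 and 27.18 TPM in KO, without overlap, and did not pass (difference -0.50 ± 0.17, limma adjusted p 0.0658). Il18rap, the accessory chain for IL-18, had 0.61 to 1.12 TPM in WT and 1.0 to 1.77 TPM in KO (difference 0.35 ± 0.20, limma adjusted p 0.204). Il1rl1, which encodes the IL-33 receptor ST2, and Il18r1, the binding chain for IL-18, were under the filter, at 0.33 to 0.62 and 0.09 to 0.44 TPM over the 6 libraries. Il1rap, the accessory chain that IL-1, IL-33 and IL-36 receptors share, lies elsewhere, on chromosome 16. It had 17.17 to 21.14 TPM in WT and 22.18 to 23.01 TPM in KO, without overlap, and did not pass (difference 0.21 ± 0.11, limma adjusted p 0.171). Il1rapl2, a brain-enriched relative, reached 0.04 TPM at most.

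The abundant ligand genes of the family did not pass. Il1a, which encodes IL-1α, had 188.22, 99.00 and 117.73 TPM in WT and 133.17, 227.82 and 220.24 TPM in KO. Its groups overlapped, with a difference of 0.53 ± 0.32 and a limma adjusted p of 0.272. Il1rn had 310.76, 271.51 and 243.32 TPM in WT and 315.64, 328.99 and 321.08 TPM in KO, which did not overlap by a narrow margin (difference 0.23 ± 0.10, limma adjusted p 0.11). Without wild-type replicate 1 it passed as higher, at 0.32. With any other single library left out Il1rn did not pass, at limma adjusted p from 0.202 to 0.261. The ratio of Il1rn to Il1a ran from 1.65 to 2.74 in wild type and from 1.44 to 2.37 in knockout, and these ranges overlapped. Il1f9, which encodes IL-36γ, varied little, between 20.68 and 24.46 TPM in all libraries, with a difference of 0.09 and a 95% interval from -0.13 to 0.30. Il33, the epithelial alarmin, was under the filter at 0.61 to 1.39 TPM, and Il1f6, which encodes IL-36α, was listed above 0 in knockout replicate 2 alone, at 0.11 TPM.

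In the IL-10 family the shared beta chain of the IL-20 receptors rose, while its partner chains were near 0. Il20rb (Entrez gene 213208, chromosome 9, 100457719 to 100486473) had 6.55, 2.88 and 4.91 TPM in WT and 8.28, 7.84 and 10.39 TPM in KO. The groups did not overlap, and the mean rose 1.85-fold, from 4.78 ± 1.84 to 8.84 ± 1.36 TPM (SD, n = 3 each). The difference was 0.81 ± 0.23 (limma adjusted p 0.0442). It was lost on FPKM values, with no filter, with plain variance moderation, after median-ratio or quantile scaling and without any library other than wild-type replicate 1. The chains that pair with it, Il20ra and Il22ra1, reached 0.05 and 0.38 TPM at most, and its ligand gene Il19 reached 0.09 TPM.

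The IL-10 receptor chains were abundant and did not pass. Il10ra, the chain specific for IL-10, had 47.5 ± 4.49 TPM in WT and 51.3 ± 3.38 TPM in KO, with a difference of 0.11 and a 95% interval from -0.11 to 0.33. Il10rb, which IL-10 shares with IL-22 and the lambda interferons, had 102 ± 1.76 and 109 ± 6.90 TPM, with a difference of 0.09 and an interval from -0.09 to 0.27, and its knockout values lay just above the wild-type values. Il10 itself, which encodes a cytokine that restrains macrophages, was under the filter. It had 0.64, 0.16 and 0.14 TPM in WT and 0.96, 1.13 and 0.91 TPM in KO, and it was not tested. The knockout values were the higher ones. Il22 was listed above 0 in knockout replicate 3 alone, at 0.10 TPM.

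The receptor for IL-6 was lower in every knockout library but did not pass. Il6ra, the chain that binds IL-6, had 27.94, 52.74 and 41.63 TPM in WT and 15.27, 25.52 and 20.97 TPM in KO. Il6st, which encodes gp130, the signalling chain for the IL-6 group, had 14.76, 33.04 and 21.94 TPM in WT and 11.73, 11.58 and 12.94 TPM in KO. In both genes the groups did not overlap, and wild-type replicate 1 was the lowest wild-type library. The knockout values lay wholly below the wild-type values for 34.6% of all tested genes. The means went from 40.8 ± 12.4 to 20.6 ± 5.14 TPM for Il6ra (difference -0.94 ± 0.27, limma adjusted p 0.0584). For Il6st they went from 23.3 ± 9.21 to 12.1 ± 0.746 TPM (difference -0.82 ± 0.25, limma adjusted p 0.0627). Both passed as lower without wild-type replicate 1, at differences of -1.18 and -1.10, where the lower genes over all rose from 1129 to 2577. With any other single library left out neither passed. Limma adjusted p then ran from 0.0848 to 0.15 for Il6ra and from 0.0858 to 0.18 for Il6st.

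Among the 3 gp130 cytokine genes limma called 0, with 1 higher at an unadjusted p under 0.05. Il6 had 6.79, 2.42 and 3.53 TPM in WT and 6.26, 8.10 and 7.34 TPM in KO, where wild-type replicate 1 overlapped the knockout (difference 0.73 ± 0.27, limma adjusted p 0.0940). Without that library it passed as higher, at a difference of 1.06. With any other single library left out Il6 did not pass, at limma adjusted p from 0.171 to 0.233. Il27, whose gene overlaps that of Apobr, had 7.67 to 9.07 TPM in WT and 8.48 to 12.45 TPM in KO (limma adjusted p 0.179). Il11 had 0.98 to 1.79 TPM in WT and 0.67 to 1.07 TPM in KO (limma adjusted p 0.213). Among the receptors, Il27ra had 6.99 to 7.83 TPM in WT and 6.54 to 8.44 TPM in KO, and Il11ra1 had 47.43 to 67.41 and 53.24 to 74.16 TPM. Il11ra1 overlaps Ccl27a and has a close copy, Il11ra2, listed at 0.18 TPM or less, so reads may have been divided between them. Il31ra had 0.30 to 0.62 TPM in WT and 0.08 to 0.31 TPM in KO and was not tested.

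**Figure D4:**
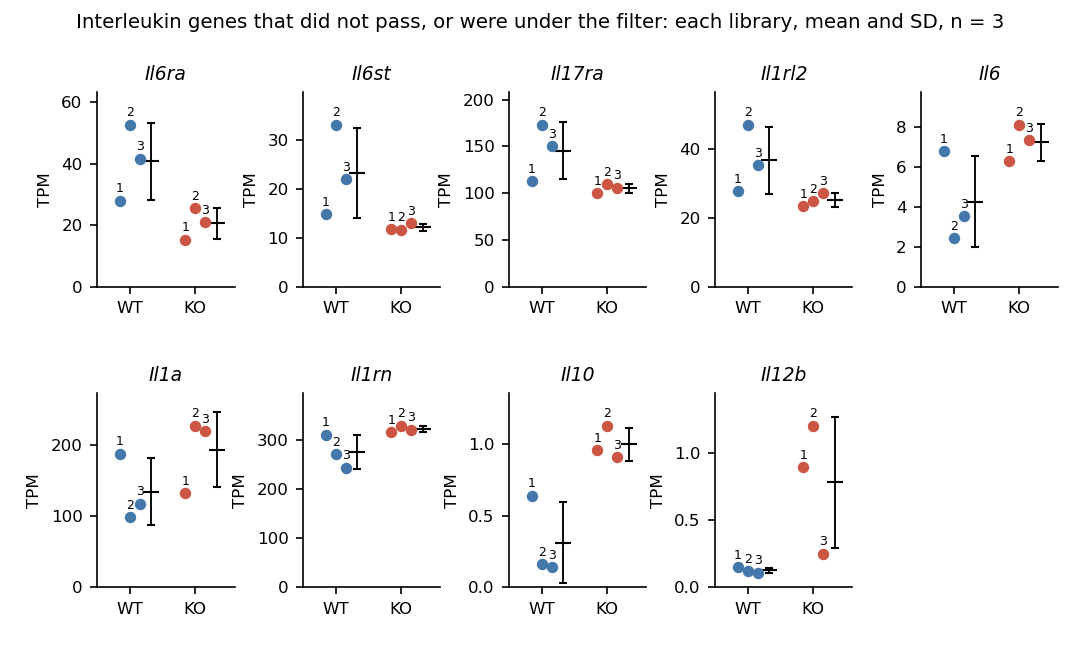
TPM in each library, with replicate numbers, of 7 tested interleukin genes that did not pass and of Il10 and Il12b, which were under the filter, with the mean and SD of 3 libraries as black bars. Il6ra, Il6st, Il17ra and Il1rl2 have all knockout points below all wild-type points, with wild-type replicate 1 the lowest wild-type point in each. The same separation held for 34.6% of all tested genes.

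Il17ra, the shared receptor chain of the IL-17 cytokines, had 112.65, 173.03 and 150.19 TPM in WT and 99.73, 109.13 and 105.77 TPM in KO. The groups did not overlap, as for 34.6% of all tested genes in this direction, and the gene did not pass (difference -0.45 ± 0.14, limma adjusted p 0.0575). After median-ratio scaling the difference of Il17ra was -0.29. Without wild-type replicate 1 it passed as lower, at -0.62, as did Il1rl2, at -0.68. With any other single library left out neither passed. Limma adjusted p then ran from 0.108 to 0.171 for Il17ra and from 0.0936 to 0.191 for Il1rl2. The partner chains of Il17ra, Il17rb, Il17rc, Il17rd and Il17re, each stayed at 0.81 TPM or less. Il17d, an IL-17 ligand, had 3.27 ± 0.711 TPM in WT and 3.26 ± 0.870 TPM in KO, with a difference of -0.01 and a 95% interval from -0.44 to 0.42, and its sign changed with the scaling. Il17a was under the filter, with 0, 0.26 and 0 TPM in WT and 0.85, 1.18 and 0.24 TPM in KO, and the groups overlapped. Il17f was listed above 0 in knockout replicate 2 alone, at 0.24 TPM, and Il17c reached 0.29 TPM at most.

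Of the IL-12 family Il12rb2, a chain of the IL-12 receptor, was the tested member. It had 19.05 to 26.23 TPM in WT and 17.10 to 20.45 TPM in KO (difference -0.18 ± 0.14, limma adjusted p 0.351). Il12rb1, the chain it pairs with to respond to IL-12, was listed at 0.09 to 0.26 TPM in all libraries. Il12b, which encodes the p40 subunit of IL-12 and IL-23, had 0.15, 0.12 and 0.11 TPM in WT and 0.89, 1.2 and 0.25 TPM in KO and was not tested. The lowest knockout value, in replicate 3, lay near the wild-type values. Il12a and Il23a, which encode the partner subunits of p40, had 0 to 0.36 and 0.14 to 0.81 TPM over the 6 libraries, with overlap between groups. Il23r was listed at 0 in every wild-type library and at 0.18, 0.11 and 0.11 TPM in KO.

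Of the 2 tested receptor chains that pair with the common beta chain limma called 0, with 1 lower at an unadjusted p under 0.05. Il3ra, the IL-3 receptor chain, had 46.3 ± 8.53 TPM in WT and 54.1 ± 9.72 TPM in KO, with overlap (limma adjusted p 0.320). Il5ra, the IL-5 receptor chain, had 1.31, 1.48 and 1.01 TPM in WT and 0.98, 0.70 and 0.35 TPM in KO, without overlap (difference -0.45 ± 0.20, limma adjusted p 0.126). It met the filter through its wild-type values alone, so its direction and its lack of overlap are a description. Il5 reached 0.06 TPM, in wild type, and was listed at 0 in every knockout library. Il13ra2, the decoy receptor for IL-13, was listed at 0 except in knockout replicate 2, at 0.10 TPM.

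Il16 (Entrez gene 16170, chromosome 7, 83642819 to 83746028), which encodes the precursor of a chemoattractant for CD4+ cells, was the called lower member. It had 37.23, 54.97 and 42.76 TPM in WT and 30.19, 30.19 and 28.21 TPM in KO. The knockout libraries lay close together and below the wild type. The mean fell 1.52-fold, from 45.0 ± 9.08 to 29.5 ± 1.14 TPM (SD, n = 3 each), a difference of -0.57 ± 0.13 (limma adjusted p 0.0234). Relative to the median of all genes the difference was -0.43. It was lost with no filter and without any library other than wild-type replicate 1. Il34, a ligand of the CSF1 receptor, reached 0.41 TPM at most. Il4i1 and Il4i1b, which overlap on chromosome 7 and encode an amino acid oxidase, were listed between 0 and 1.73 TPM, and their reads may not have been separable.

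**Figure D5:**
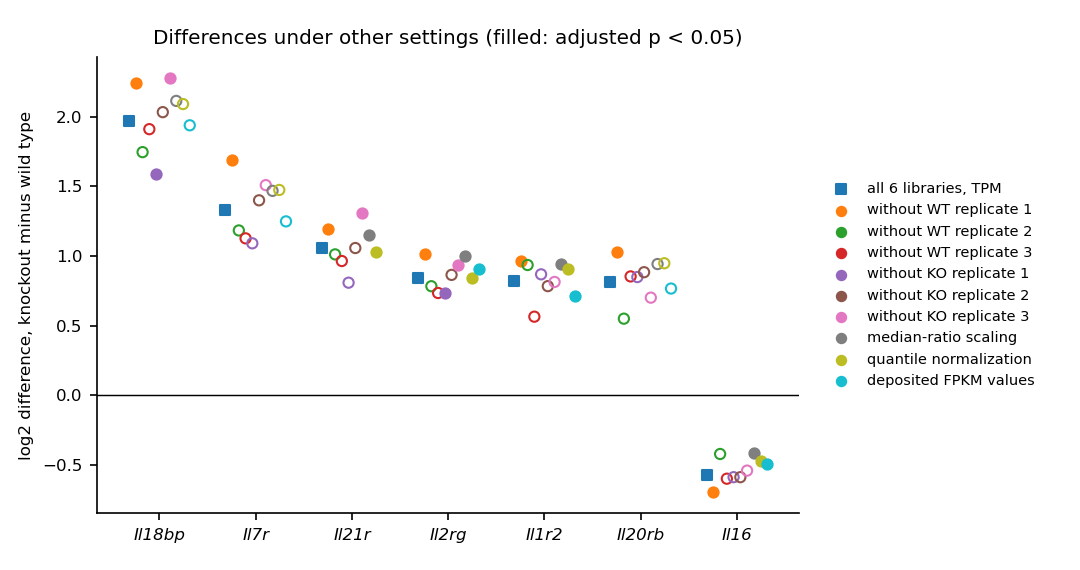
Difference between knockout and wild type on the log2 scale for the 7 called genes with all 6 libraries (square), with each library left out in turn, and under other scaling or FPKM values. Filled symbols passed at a limma adjusted p under 0.05; each gene kept its direction under the settings shown, and without wild-type replicate 1 all 7 passed. Il21r has no FPKM value because it was under the filter there.

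Genes that carry the interleukin signal inside the cell, with partner cytokines and receptors of other names, made up 4 lists. The lists held 59 genes, 19 of them partners, and 49 were tested. Of these 4 were higher and 5 lower, which is 8.16% and 10.2%, where 4.47% and 10.2% of all genes were called. Among JAK and STAT proteins 2 of 10 were higher and 2 lower. Stat2, which carries interferon signals, rose from 47.4 ± 6.64 to 97.6 ± 24.8 TPM (limma adjusted p 0.0222). Stat5a and Stat5b, the transcription factors that act downstream of the common gamma and common beta chains, fell from 34.3 ± 6.56 to 24.6 ± 1.09 TPM (limma adjusted p 0.0429) and from 32.7 ± 4.04 to 22.6 ± 0.800 TPM (limma adjusted p 0.0186). They are close copies of each other, so that reads may have been divided between them.

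Among SOCS and other feedback genes 2 of 13 were higher and 1 lower, which is 15.4% and 7.69%, where 4.47% and 10.2% of all genes were called. Socs3, which binds gp130-type receptors and limits their signal, had 38.63, 29.77 and 37.89 TPM in WT and 73.79, 78.16 and 62.87 TPM in KO. Its groups were well apart, with a 2.02-fold rise and a difference of 1.0 ± 0.12 (limma adjusted p 0.00188). Socs1, an inhibitor of JAK kinases, rose from 5.06 ± 1.10 to 15.9 ± 5.62 TPM (limma adjusted p 0.0174), and Socs5 fell from 8.09 ± 1.63 to 5.30 ± 0.135 TPM (limma adjusted p 0.0463). Over all 11111 tested genes 3163 were lower and 977 higher at an unadjusted p under 0.05. Among 15 tested genes of IL-1 receptor and MyD88 signalling limma called 2 lower (13.3%, against 10.2% of all genes) and 0 higher. At an unadjusted p under 0.05, 5 of the 15 were lower and 0 higher. The called genes were Irak4, the kinase that MyD88 recruits, which fell from 26.2 ± 2.80 to 19.3 ± 0.520 TPM (limma adjusted p 0.0299), and the adaptor gene Pik3ap1, which fell from 373 ± 60.6 to 251 ± 12 TPM (limma adjusted p 0.0162). Of 11 tested partner cytokines and receptors with other names, limma called 0, with 1 higher and 2 lower at an unadjusted p under 0.05. With 1 library left out, 1 to 4 of these signalling and partner genes were higher and 0 to 14 lower, the most lower genes without wild-type replicate 1.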

How the data were processed

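Bulk RNA-seq of alveolar macrophages was available for 6 libraries, 3 WT and 3 KO. The authors deposited TPM values and FPKM values per gene, to 2 decimals, without read counts, per the file headers. HISAT2 2.0.4, Bowtie2 2.2.5 and the GRCm38.p6 build are named in the submitters' processing notes, and their roles are not stated there. The counting tool and the use of strand are not given in the labels. Depth is therefore unknown and no counting interval was computed. RNA had been extracted with TRIzol, per the labels' protocols.

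The TPM values were tested as log2(TPM + 1) with limma 3.58.1 in R 4.3.3 (trend and robust moderation), over genes with 1 TPM or more in at least 3 of 6 libraries, with Benjamini-Hochberg adjustment over all 11111 of them. The script was first tested on simulated data. Alternatives were FPKM, median-ratio and quantile scaling, a pseudocount of 0.1 or of 5, testing every gene, raising the minimum to 5 TPM, plain variance moderation, a replicate block and leaving out each library. All 65 members matched RefSeq, and 52 had promoter windows, taken from RefSeq on GRCm38.p6. Every tested member is named, by role, as are members of the signalling lists that passed, up to 4 a list, except that 1 result is not reported here. The members and lists were chosen with earlier results of these data known.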

Additional observations from a re-analysis of the deposited data

How the results depend on the processing

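With all 6 libraries 6 members were higher and 1 lower. Higher members numbered 2 on FPKM values and 3 with no filter, after median-ratio scaling and after quantile normalization, and lower members numbered 0 with no filter. With no filter Il23r was called in addition. Over all genes 1129 were lower, against 326 with no filter, 383 after median-ratio scaling, 587 after quantile normalization and 672 with plain variance moderation. The share of higher genes among all calls was 30.6%, and it was 63.5% after median-ratio scaling and 48.8% after quantile normalization. Of the signalling and partner genes 2 were lower with no filter, 2 after median-ratio scaling and 2 after quantile normalization. Leaving out 1 library gave 0 to 8 higher and 0 to 5 lower members, 124 to 800 higher and 84 to 2577 lower genes, and 1 to 4 higher and 0 to 14 lower signalling and partner genes. The cause of these shifts was not tested.

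The difference of Il17d, -0.01 with all libraries, was 0.034 on FPKM values, 0.11 after median-ratio scaling and 0.076 after quantile normalization, and ran from -0.12 to 0.17 with 1 library left out. That of Il1r1 ran from -0.32 to 0.040 and that of Il27ra from -0.016 to 0.15 with 1 library left out. No other tested member changed sign under the alternatives run.

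The replicate numbers were not taken as pairs. Deviations of same-numbered libraries correlated at 0.323, -0.0325 and 0.0854, and wild-type replicate 2 correlated best with knockout replicate 3, at 0.297. With the replicate block 5 members were lower, Il16 with Il6ra, Il6st, Il17ra and Il1rl2 in addition, 753 genes were higher, 2147 genes were lower and 9 signalling and partner genes were lower. The depth of the libraries is unknown, so how far it limits the members under 1 TPM cannot be given, and with 3 libraries in each group a missed threshold does not show that levels were alike.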
